A study of Mus musculus with 24 samples.

Results

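A set of 10 genes that encode neuropeptide precursors was followed through the hippocampus of adult mice with and without the transcriptional coactivator CBP in excitatory forebrain neurons. They (Penk, Pdyn, Npy, Sst, Cck, Vip, Tac1, Tac2, Crh and Adcyap1) were chosen by name, as rows of the count table whose Ensembl identifier belongs to the gene, out of 55471 genes in all. All 10 were found and all 10 passed edgeR's filter on low counts in each fit. The study compared 12 female C57BL/6 mice. There were 3 control littermates and 3 CBP-ifKOs in standard cages (SC), and as many of each genotype that had lived in an enriched environment (EE) for about a month. CBP-ifKOs carried floxed Crebbp alleles and the CaMKIIα-creERT2 transgene, whose promoter is active in excitatory forebrain neurons, so that interneurons and glia were not its targets. Controls lacked creERT2, and mice of both genotypes, aged 3 to 6 months, received tamoxifen in 5 intragastric administrations of a 20 mg/mL solution. The rearranged allele encodes a truncated CBP. RNA was sequenced from the hippocampus of each mouse separately.

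Neuropeptides are cut from larger precursors in the secretory pathway, packed into dense-core vesicles and released mostly during strong firing. In the hippocampus the opioid precursors are a feature of dentate granule cells, whose mossy fibers store dynorphin (from Pdyn) and enkephalin (from Penk), although some interneurons also make enkephalin. Somatostatin (Sst), neuropeptide Y (Npy), vasoactive intestinal peptide (Vip), tachykinins (Tac1, Tac2) and corticotropin releasing hormone (Crh) are used to tell classes of GABAergic interneurons apart. Cholecystokinin (Cck) marks a class of basket cells but is also transcribed in pyramidal cells, and Adcyap1, which encodes PACAP, is found mostly in excitatory neurons. CBP owes its name to CREB, the factor that binds the cyclic AMP response element (CRE), and the CRE of the somatostatin gene is a textbook example of such a site.

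Because of that background the 250 bases before the RefSeq start site (GRCm38.p6) were searched on both strands for the CRE (TGACGTCA), its shorter core (TGACG), a variant (TGCGTCA) and the AP-1 site (TGACTCA). Promoter sequences were matched for 8 of the 10 genes, and Penk and Crh are named only. The 120 bases before the start are shown for 3 genes that were lower in CBP-ifKOs (Pdyn, Cck and Sst) and for Vip, whose values lay the other way, 5′ to 3′ on the strand of the gene and with matches in capitals. They lie at chr2:129699939-129700058 (minus strand) for Pdyn, chr9:121495695-121495814 (minus) for Cck, chr16:23890845-23890964 (minus) for Sst and chr10:5639098-5639217 (plus) for Vip.
Sst: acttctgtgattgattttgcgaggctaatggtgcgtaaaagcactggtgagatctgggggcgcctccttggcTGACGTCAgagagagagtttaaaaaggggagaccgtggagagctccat
Cck: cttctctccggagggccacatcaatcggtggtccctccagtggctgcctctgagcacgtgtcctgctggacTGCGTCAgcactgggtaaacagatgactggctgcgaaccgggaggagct
Pdyn: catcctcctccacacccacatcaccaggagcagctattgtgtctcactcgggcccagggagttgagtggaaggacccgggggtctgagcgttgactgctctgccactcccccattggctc
Vip: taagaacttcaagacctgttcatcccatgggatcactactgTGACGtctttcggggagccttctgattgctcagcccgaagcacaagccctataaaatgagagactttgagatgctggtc
The full CRE was present only at Sst among the 8 genes, from position -48 to -41 relative to the start, and 1.55% of the 32851 promoters in the table hold it. The variant was found at Cck (from -49 to -43) and at Tac1 (from -199 to -193), against 1.75% of all promoters. The shorter core, which overlaps both of those motifs, was also found at Vip (from -79 to -75), at Adcyap1 and at a further position of Tac1, and 17.8% of all promoters hold it. The AP-1 site occurs in 4.46% of promoters and in none of these windows, and none of the 4 motifs was found before either start of Pdyn or before Npy and Tac2. Genes with and without matches are thus found among those that were lower in CBP-ifKOs, and these matches of letters are a description of the windows and not of binding.

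Control libraries held between 26874015 and 27971488 counts and CBP-ifKO libraries between 28582210 and 37448388. All counts of the CBP-ifKO libraries are even, so their totals may overstate the reads, and depth was not compared between genotypes. Levels are given as CPM, in which the counts of each library are brought to a common size after TMM normalization. A level of 3 counts was equal to 0.107 to 0.112 CPM in control libraries and to 0.0801 to 0.105 CPM in CBP-ifKO libraries. This limit covers counting error alone, and it may be too low in CBP-ifKO libraries, where all counts are even. As a check of the labels, Crebbp was at 69.6 to 81.9 CPM in the 6 control mice and at 44.5 to 51.5 CPM in the 6 CBP-ifKOs. The library of control EE replicate 1 stood apart for choroid plexus transcripts, with 1128 CPM of Ttr against 4.05 to 32.3 CPM in the other libraries. Replicate 2 of the controls was the lowest of its group for Penk, Npy, Sst, Cck and Vip in both housings. Markers of regions next to the hippocampus that are rich in some of these peptides varied in level. Of 8 striatal markers Drd2 and Adora2a did not exceed 3.36 and 1.59 CPM, whereas Pde10a (62.2 to 97.6 CPM), Rasd2 (31.9 to 76 CPM), Ppp1r1b (19.9 to 40.2 CPM) and Rgs9 (11.4 to 17.3 CPM) were at the level of the opioid precursors or above it. Of 4 thalamic markers Prkcd was highest (16.1 to 31.6 CPM). Of 4 habenular markers Pou4f1 was at 0 in 10 of 12 libraries and Chrnb4 did not exceed 0.661 CPM, while Chrna3 (0.741 to 2.75 CPM) and Gpr151 (0.688 to 1.60 CPM) were above 3 counts in every library. Of 5 hypothalamic markers Hcrt, Pmch, Avp and Oxt stayed at or below 0.231 CPM, and Agrp was at 0.346 to 0.798 CPM.

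The 10 precursors differed widely in level. Per kilobase of exon, which allows genes to be compared, Sst was first in control SC mice with 231 ± 28.0 CPM per kb (SD, n = 3), followed by Cck with 153 ± 16.9 and Npy with 61.2 ± 9.58. Penk (13.8 ± 0.994 CPM per kb), Vip (6.65 ± 0.512), Pdyn (5.53 ± 0.793) and Tac1 (3.32 ± 0.813) came next. The lowest were Tac2 (2.42 ± 0.156), Adcyap1 (2.41 ± 0.167) and Crh (1.25 ± 0.153). Neighbors in this order did not overlap between mice, except for Tac2 and Adcyap1. In CBP-ifKO SC mice the places of both opioid precursors were different. Penk, at 6.73 ± 0.411 CPM per kb, was below every value of Vip, and Pdyn, at 2.07 ± 0.215 CPM per kb, was ninth, within the range of Adcyap1. In CBP-ifKO EE mice Penk (10.2 ± 1.35 CPM per kb) was again above Vip (8.42 ± 0.622), with ranges that overlapped, and Pdyn (1.86 ± 0.111) was again ninth. The order of Sst, Cck and Npy was kept in all 4 groups with no overlap between neighbors.

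**Figure D1:**
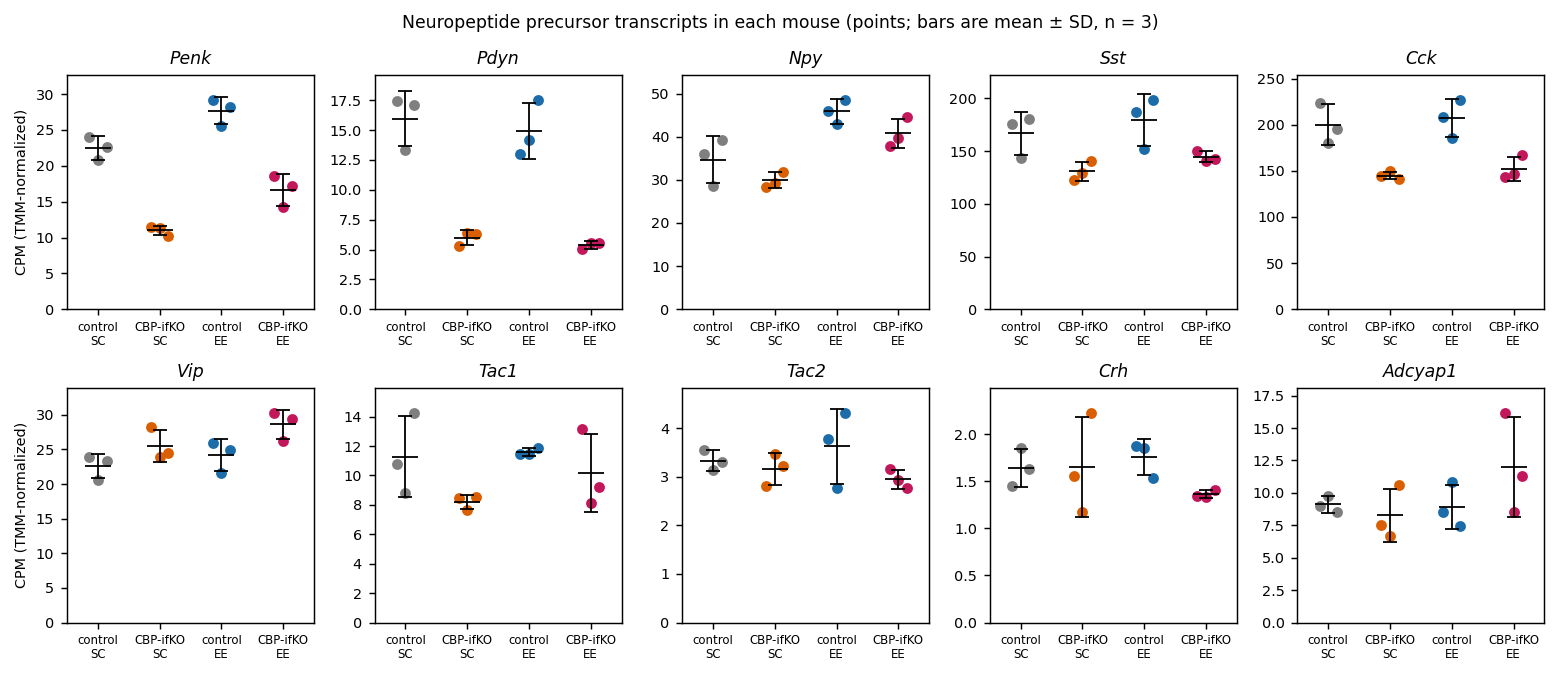
TMM-normalized CPM of each precursor (vertical axes, each from 0) in the 4 groups, with 1 point per mouse and bars for the mean ± SD of 3 mice. The CBP-ifKO points of Penk and Pdyn lie below all control points of the same housing, whereas those of Vip lie above them and those of Npy overlap with them.

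The first comparison asked how the precursors differ between genotypes in SC. In CBP-ifKOs 4 of the 10 were lower with an adjusted p below 0.05 (edgeR quasi-likelihood test, Benjamini-Hochberg adjustment over 17532 genes), namely Pdyn, Penk, Cck and Sst, and none was higher. Over all genes tested 5.52% passed, and 4.02% passed as lower in CBP-ifKOs. The median log2 fold change was -0.28 over the 10 precursors and -0.00 over all genes tested. Penk, Pdyn and Cck are on the study's list of genes decreased in CBP-ifKOs, which was drawn in part from these SC mice, so that their direction here is not independent evidence. Since whole hippocampus was sequenced, fewer cells of a type and less RNA per cell cannot be told apart.

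Pdyn (ENSMUSG00000027400, chr2:129686565-129699844) encodes prodynorphin, the precursor of dynorphins, which act mostly on kappa receptors. Control SC mice had 17.5, 13.3 and 17.1 CPM of Pdyn, and CBP-ifKO SC mice had 5.26, 6.36 and 6.30 CPM. The groups were far apart, and the log2 fold change was -1.42 (standard error, SE, 0.13; adjusted p = 0.000127 in the edgeR test), which is 2.67 times lower. Penk (ENSMUSG00000045573, chr4:4133531-4138819) encodes proenkephalin. It was at 24, 20.8 and 22.6 CPM in control SC mice and at 11.4, 11.3 and 10.2 CPM in CBP-ifKO SC mice, again without overlap. Its log2 fold change was -1.03 (SE 0.09, adjusted p = 9.93e-05 in the edgeR test), or 2.05 times lower. The exons of Penk share 233 bases with A830012C17Rik on the opposite strand, which had 6 counts in the 12 mice together. Both opioid precursors passed in each of the 6 fits that left out 1 mouse, with adjusted p between 6.67e-05 and 0.00147 for Pdyn and between 0.000103 and 0.00117 for Penk.

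Of the 7 precursors used as interneuron markers, Cck and Sst were lower and 5 did not pass. Cck (ENSMUSG00000032532, chr9:121489824-121495694) was at 224, 180 and 196 CPM in control SC mice and at 144, 149 and 141 CPM in CBP-ifKOs. These groups did not overlap, and the log2 fold change was -0.47 (SE 0.07, adjusted p = 0.00397 in the edgeR test). Sst (ENSMUSG00000004366, chr16:23889573-23890958) was at 176, 144 and 181 CPM in control SC mice and at 122, 130 and 141 CPM in CBP-ifKOs. Its change was smaller, at -0.35 on the log2 scale (SE 0.08, adjusted p = 0.0324 in the edgeR test). Of the 6 fits that left out a mouse it passed only in that without control SC replicate 2 (-0.45, adjusted p = 0.00125 in the edgeR test). In the other fits the adjusted p of edgeR lay between 0.0537 and 0.145. The change of Cck passed in all 6, with adjusted p up to 0.0286.

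Npy (ENSMUSG00000029819, chr6:49822710-49829507) overlapped between the genotypes in SC, with 36.1, 28.6 and 39.2 CPM in controls and 28.3, 29.3 and 31.9 CPM in CBP-ifKOs. The log2 fold change was -0.21 (95% interval -0.44 to 0.01, adjusted p = 0.264 in the edgeR test), against -0.33 (adjusted p = 0.0163) when control SC replicate 2 was left out and -0.11 (adjusted p = 0.672) when control SC replicate 3 was. Vip (ENSMUSG00000019772, chr10:5639218-5647617) was at 28.2, 23.9 and 24.5 CPM in CBP-ifKO SC mice and at 23.9, 20.7 and 23.3 CPM in control SC mice. The lowest CBP-ifKO value was only just above the highest control value. This difference of 0.17 on the log2 scale (95% interval -0.02 to 0.37) did not pass, with an adjusted p of 0.294 in the edgeR test. It lay between 0.10 and 0.22 when 1 mouse was left out, and passed in none of these fits. For Tac1, the precursor of substance P, the value was -0.45 (95% interval -0.79 to -0.12, adjusted p = 0.115 in the edgeR test), against -0.61 (adjusted p = 0.0175) when control SC replicate 2 was left out and -0.25 (adjusted p = 0.441) when control SC replicate 3 was. Tac2, Crh and Adcyap1 had values of -0.08, 0.02 and -0.13, and their 95% intervals reached from -0.43 to 0.27, from -0.55 to 0.59 and from -0.48 to 0.21. Leaving out 1 mouse moved Adcyap1 between -0.35 and -0.004. Crh was the precursor of lowest count, with 39 to 51 counts per control library and 34 to 84 per CBP-ifKO library, where all counts are even. Its interval in SC includes changes of the size seen for Sst and Cck.

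The same comparison was made in the EE-housed mice, which share no animal with the SC mice. Pdyn, Penk and Cck, 3 of the 10 precursors, were lower in CBP-ifKOs with an adjusted p below 0.05, and none was higher. Over all 17625 genes tested 4.57% passed in either direction and 3.53% in the lower one. The median was -0.30 over the 10 precursors and 0.01 over all genes tested. Pdyn was at 13.0, 14.2 and 17.5 CPM in control EE mice and at 5.01, 5.55 and 5.58 CPM in CBP-ifKO EE mice. The log2 fold change of -1.46 (SE 0.13, adjusted p = 0.000272 in the edgeR test) was close in size to that in SC. Penk was at 29.2, 25.6 and 28.2 CPM in control EE mice and at 18.5, 14.2 and 17.2 CPM in CBP-ifKO EE mice. It changed by -0.72 on the log2 scale (SE 0.10, adjusted p = 0.0037 in the edgeR test). Both passed in all 6 fits that left out 1 mouse, that without control EE replicate 1 included.

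Cck was at 208, 186 and 227 CPM in control EE mice and at 143, 147 and 167 CPM in CBP-ifKO EE mice. The groups did not overlap, and the log2 fold change was -0.44 (SE 0.09, adjusted p = 0.0165 in the edgeR test), but it passed in only 3 of the 6 fits that left out 1 mouse. Without CBP-ifKO EE replicate 1, CBP-ifKO EE replicate 2 or control EE replicate 3 the adjusted p of Cck was 0.0648, 0.0706 and 0.0706. Sst was at 187, 152 and 199 CPM in control EE mice and at 150, 140 and 143 CPM in CBP-ifKO EE mice, again without overlap. Its value of -0.30 (95% interval -0.50 to -0.10) had an adjusted p of 0.0873 in the edgeR test, and with DESeq2 the adjusted p was 0.00871. Sst in EE also passed in edgeR with the replicate number as a block. When control EE replicate 2 was left out Sst passed in the edgeR test (-0.41, adjusted p = 0.00486), and in the other 5 such fits it did not, with adjusted p between 0.137 and 0.28. Vip was again higher in every CBP-ifKO EE mouse, at 30.3, 26.2 and 29.4 CPM against 26.0, 21.6 and 24.9 CPM in control EE mice, with 0.25 on the log2 scale (95% interval 0.06 to 0.45, adjusted p = 0.145 in the edgeR test). Npy was at 46.0, 42.9 and 48.6 CPM in control EE mice and at 37.9, 39.8 and 44.6 CPM in CBP-ifKO EE mice, so the groups overlapped, with -0.16 on the log2 scale (95% interval -0.34 to 0.01). The values of Tac1, Tac2, Crh and Adcyap1 in EE were -0.18, -0.29, -0.35 and 0.44, with adjusted p between 0.284 and 0.596 in the edgeR test. Leaving out 1 mouse moved Adcyap1 between 0.16 (without CBP-ifKO EE replicate 1) and 0.63 (without CBP-ifKO EE replicate 2), Tac1 between -0.41 and -0.04 (without the same mice) and Tac2 between -0.45 (without control EE replicate 2) and -0.14 (without control EE replicate 3). None of them passed in these fits, and Adcyap1 passed as higher without the filter on low counts (adjusted p = 0.0333 in the edgeR test).

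**Figure D2:**
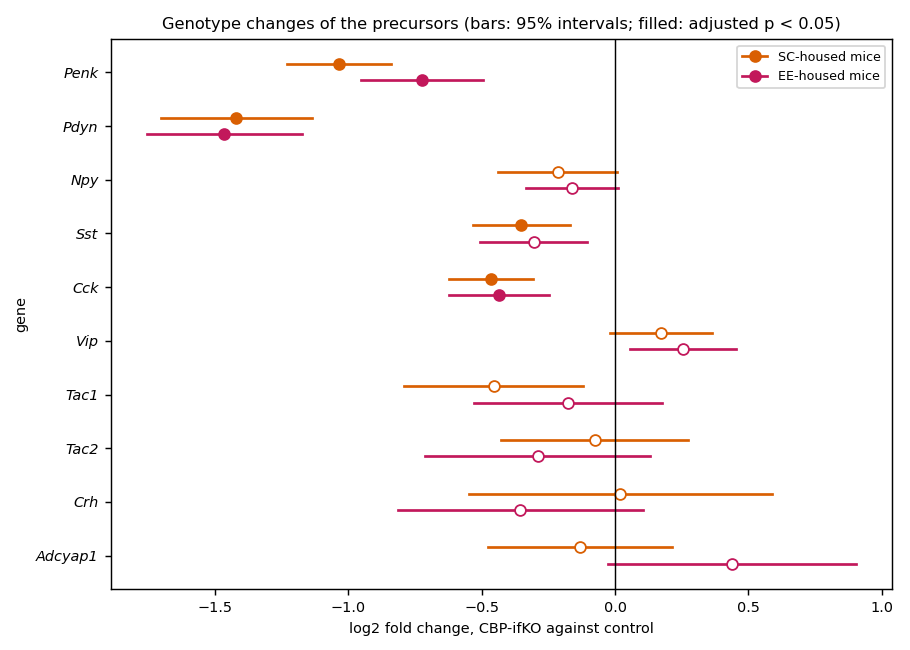
Log2 fold change of each precursor between CBP-ifKOs and controls (horizontal axis; below 0 is lower in CBP-ifKOs) with its 95% interval, in SC-housed mice (orange) and EE-housed mice (magenta), filled where the adjusted p is below 0.05. Pdyn and Penk have the lowest values in both housings (-1.42 and -1.03 in SC, -1.46 and -0.72 in EE), and the points of Vip lie above 0 in both.

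Over both housings, with 6 mice of each genotype, 5 of the 10 precursors passed, against 16.9% of 18251 genes. In CBP-ifKOs 4 were lower, against 10.3% of all genes, and 1 was higher, against 6.64%. Pdyn (-1.45), Penk (-0.88), Cck (-0.45) and Sst (-0.33) were the lower ones, with adjusted p of 1.3e-07, 8.92e-07, 0.000101 and 0.00322 in the edgeR test, and each of them passed in all 12 fits that left out 1 mouse. Vip was the higher one, with 0.21 on the log2 scale (95% interval 0.07 to 0.35, adjusted p = 0.0361 in the edgeR test). The call of Vip was kept in 5 of the 12 fits that left out a mouse, with adjusted p between 0.0263 and 0.0992 over the 12. It was lost without control replicate 2 or 3 of either housing, without CBP-ifKO SC replicate 1, and without CBP-ifKO EE replicate 1 or 3. Npy (-0.19, adjusted p = 0.0702) and Tac1 (-0.32, adjusted p = 0.0852) did not pass in the edgeR test. Npy passed with DESeq2 (adjusted p = 0.0485), and both passed without the filter on low counts and with the replicate number as a block. When control SC replicate 2 was left out both did, Npy with -0.25 (adjusted p = 0.00605) and Tac1 with -0.40 (adjusted p = 0.0279). Tac1 also passed in the edgeR test without CBP-ifKO EE replicate 1 (-0.44, adjusted p = 0.0118).

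The granule cell opioid precursors were set against the interneuron precursors in each mouse as the mean log2 CPM of Penk and Pdyn minus that of Npy, Sst, Cck, Vip, Tac1, Tac2 and Crh. This difference was -0.06, -0.17 and -0.17 in control SC mice and -1.19, -1.01 and -1.26 in CBP-ifKO SC mice. In EE it was -0.27, -0.12 and -0.10 in controls and -1.07, -1.05 and -1.01 in CBP-ifKOs. No CBP-ifKO mouse came near the range of the controls, and the means of the genotypes differed by -1.02 in SC and by -0.88 in EE. The opioid precursors alone differed by -1.21 in SC and -1.09 in EE on this scale, and the interneuron precursors by -0.20 in SC and -0.21 in EE. The score was built from chosen genes and has no test.

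**Figure D3:**
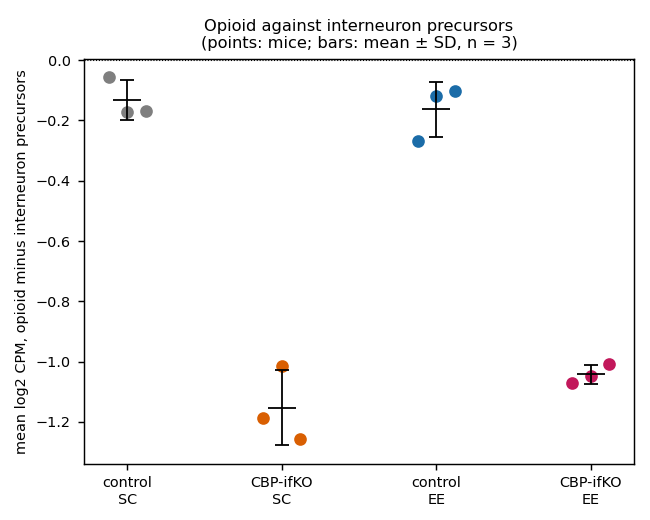
Mean log2 CPM of Penk and Pdyn minus that of the 7 interneuron precursors (vertical axis) in each mouse (points), with the mean ± SD of 3 mice per group (bars). The control points lie between -0.27 and -0.06 and the CBP-ifKO points between -1.26 and -1.01 in both housings.

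A further comparison asked how the precursors differ between housings within each genotype, with all 12 mice in 1 fit. No precursor passed in control mice with edgeR, where 0% of 18251 genes passed (768 genes and 2 of the precursors had an unadjusted p below 0.05, and DESeq2 called 15 genes and no precursor). None passed in CBP-ifKOs either, where 0.011% of genes passed, while 1567 genes (8.59%) and 3 of the precursors had an unadjusted p below 0.05. The 2 genes that passed there were BC002163 (1.37) and 2810459M11Rik (-0.60), named after their values were seen. DESeq2 called Penk and Npy in CBP-ifKOs, with adjusted p of 0.000148 and 0.00892, against 0.359% of the 15059 genes to which it gave an adjusted p. With the replicate number as a block edgeR also called Penk and Npy in CBP-ifKOs, among 17 of 18251 genes.

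Penk and Npy were the 2 precursors for which every EE mouse was above every SC mouse of its own genotype. In control mice this was true of 2 precursors and of 4.20% of all genes, in CBP-ifKOs of the same 2 and of 7.68%, and in both genotypes at once of these 2 and of 0.696%. Penk went from 20.8 to 24 CPM in control SC mice to 25.6 to 29.2 CPM in control EE mice, a log2 value of 0.30 (95% interval 0.10 to 0.51, adjusted p = 0.999 in the edgeR test). In CBP-ifKOs it went from 10.2 to 11.4 CPM in SC to 14.2 to 18.5 CPM in EE, a log2 value of 0.60 (95% interval 0.39 to 0.82, adjusted p = 0.0933 in the edgeR test). The highest CBP-ifKO EE mouse was still below the lowest control SC mouse. Npy, whose peptide restrains glutamate release and is known to respond to neuronal activity, was at 28.6 to 39.2 CPM in control SC mice and at 42.9 to 48.6 CPM in control EE mice, a log2 value of 0.40 (95% interval 0.19 to 0.61, adjusted p = 0.653 in the edgeR test). In CBP-ifKOs it was at 28.3 to 31.9 CPM in SC and at 37.9 to 44.6 CPM in EE, a log2 value of 0.45 (95% interval 0.24 to 0.66, adjusted p = 0.194 in the edgeR test). In control mice the values were 0.25 for Penk and 0.28 for Npy without control SC replicate 2, 0.36 and 0.45 without control EE replicate 2, and 0.26 and 0.40 without control EE replicate 1, and none passed. Both had an adjusted p of 0.049 in CBP-ifKOs in the edgeR test without control SC replicate 2, a mouse of neither group compared. Leaving it out changes the shared estimate of the spread and also the genes tested (18623 in place of 18251), and their parts were not told apart.

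Pdyn did not share this pattern, with -0.10 in control mice (95% interval -0.37 to 0.18) and -0.15 in CBP-ifKOs (95% interval -0.45 to 0.15). The estimates of the 2 opioid precursors thus lay on different sides of 0 for housing while both were lower in CBP-ifKOs. That of Pdyn in control mice moved between -0.23 and -0.0076 when 1 mouse was left out. Sst, Cck and Vip had values between 0.05 and 0.17 in the 2 genotypes, and their intervals all included 0. Adcyap1 overlapped between housings, with 8.53 to 16.2 CPM in CBP-ifKO EE mice and 6.71 to 10.6 CPM in CBP-ifKO SC mice, and a log2 value of 0.53 (95% interval 0.09 to 0.97, adjusted p = 0.502 in the edgeR test). Without CBP-ifKO EE replicate 1 this value was 0.25, and without CBP-ifKO SC replicate 3 it was 0.75. The immediate early genes Fos, Fosb, Junb, Egr1, Arc, Npas4 and Nr4a1, read here because several of these peptides follow neuronal activity, varied strongly between mice of 1 group. Their summed level lay between 264 and 702 CPM in control SC mice, between 289 and 512 in control EE mice, between 439 and 556 in CBP-ifKO SC mice and between 240 and 662 in CBP-ifKO EE mice. None of the 7 passed in any comparison, and their part in the values of Penk and Npy was not tested.

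**Figure D4:**
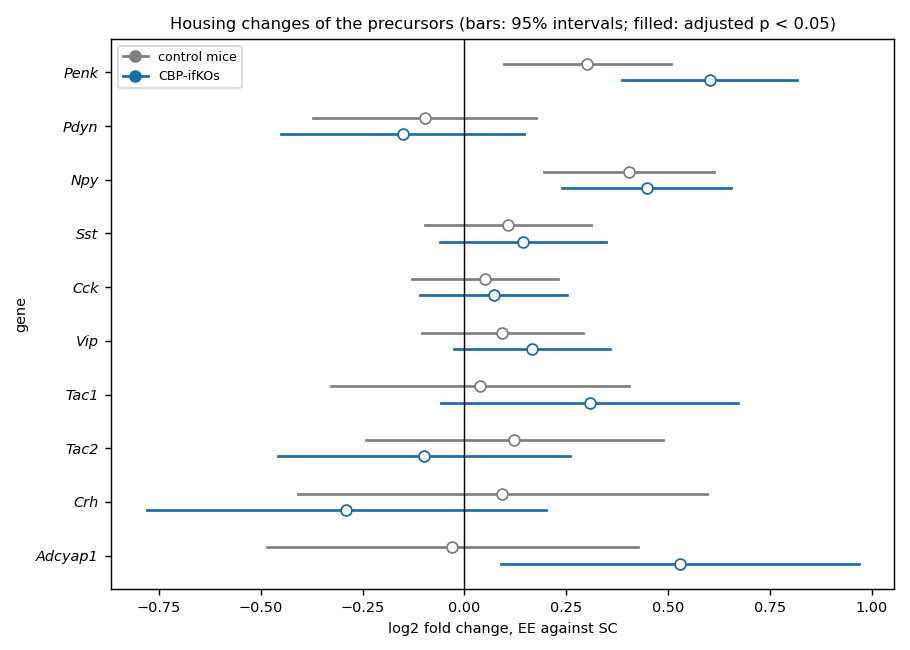
Log2 fold change of each precursor between EE and SC (horizontal axis; above 0 is higher in EE) with its 95% interval, in control mice (gray) and CBP-ifKOs (blue); no point is filled because no adjusted p was below 0.05. The intervals of Penk and Npy lie above 0 in both genotypes (0.30 and 0.60 for Penk, 0.40 and 0.45 for Npy), and those of Pdyn include 0.

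Whether the genotypes differed in their response to EE was tested by the interaction, the housing value in CBP-ifKOs minus that in controls. No precursor passed in edgeR or in DESeq2, and 0% of 18251 genes passed in edgeR (574 genes and 1 precursor had an unadjusted p below 0.05, and DESeq2 called no gene). The precursor was Penk, with 0.30 on the log2 scale (95% interval 0.00 to 0.60), an unadjusted p of 0.0474 and an adjusted p of 1 in the edgeR test. For Pdyn the interaction was -0.05 (95% interval -0.46 to 0.35) and for Npy 0.04 (95% interval -0.25 to 0.34).

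Other precursors and the machinery around them were read from lists of genes, whose counts stand against 4.02% of all genes lower in SC and 3.53% in EE. Of 10 further precursors, 9 were tested in SC and 1 passed, and 10 were tested in EE and 2 passed, all lower in CBP-ifKOs. Grp, which encodes gastrin-releasing peptide, was at 25.1 to 28.1 CPM in control SC mice and at 11.9 to 14.2 CPM in CBP-ifKO SC mice, with -0.99 on the log2 scale in SC (adjusted p = 0.000127) and -0.75 in EE (adjusted p = 0.0154 in the edgeR test). Gal, the galanin precursor, was low, with 0.367 to 0.585 CPM in control EE mice and 0 to 0.117 CPM in CBP-ifKO EE mice, where it lay at or about the level of 3 counts. Its adjusted p in EE was 0.0316 in the edgeR test, but it passed the filter on low counts only through the control mice, so that its call is no support for a direction of the list. Grp is on the study's list as well, as are Pcsk1, Sstr1, Sstr3, Calb2, C1ql2, Trpc6, Wfs1, Fibcd1 and Mpped1 named below.

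The granins, proteins of the dense-core vesicle, and the genes of peptide processing and release were read next, beside the same 4.02% and 3.53% of all genes. Of 7 granins 1 passed in SC, Vgf (-0.40, adjusted p = 0.0391 in the edgeR test), and none passed in EE. Of 9 genes of processing and release 2 passed in SC, the carboxypeptidase gene Cpd (-0.26, adjusted p = 0.0362) and the convertase gene Pcsk1 (-0.36, adjusted p = 0.0425 in the edgeR test), and none passed in EE. Cpe, the main carboxypeptidase of peptide vesicles, was at 2924 to 3068 CPM in control SC mice and at 2800 to 2892 CPM in CBP-ifKO SC mice. The median log2 value was -0.06 for the granins and -0.09 for processing and release in SC, and -0.05 and -0.07 in EE.

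Receptors of these peptides are made by excitatory neurons as well as by interneurons. Of 22 receptor genes 18 were tested in SC and 4 passed, all lower in CBP-ifKOs (4.02% of all genes), and their median was -0.32. Among them 3 are somatostatin receptors, Sstr1 (-0.70, adjusted p = 0.00828), Sstr2 (-0.54, adjusted p = 0.0262) and Sstr3 (-0.56, adjusted p = 0.00432 in the edgeR test), of which Sstr2 was named after its values were seen. The other one is the neuropeptide Y receptor gene Npy2r (-0.32, adjusted p = 0.0132 in the edgeR test). In EE 19 were tested and Sstr3 alone passed (-0.67, adjusted p = 0.00259 in the edgeR test), with a median of -0.38.

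Some markers of granule cells were lower as well, and others were not. Of 8 granule cell markers 4 were lower in CBP-ifKO SC mice and 6 in CBP-ifKO EE mice, and none was higher, against 4.02% and 3.53% of all genes, with medians of -0.43 and -0.69. The mossy fiber gene C1ql2 (-1.60 in SC and -1.91 in EE), Tdo2 (-1.31 and -1.24) and Trpc6 (-0.95 and -1.04) had the smallest p-values. Prox1, the transcription factor gene that defines granule cells, did not pass in either housing (0.05 in SC and -0.06 in EE), nor did Calb1 (0.07 and 0.03). Stxbp6 (-0.22) and Dsp (-0.12) did not pass in SC. The summed level of the 8 markers was 564 to 607 CPM in control SC mice and 472 to 525 in CBP-ifKO SC mice, and 533 to 626 and 439 to 453 CPM in the EE groups. Of 8 pyramidal cell markers 3 were lower in each housing, Wfs1 (-0.72 in SC and -0.999 in EE), Fibcd1 (-0.39 and -0.62) and Mpped1 (-0.40 and -0.35). The others did not pass. Slc17a7 (0.04 in SC and -0.02 in EE) and Bok (0.03 and -0.07) lay near 0, and Grik4, Neurod6 and Pou3f1 had values between -0.31 and -0.15. The summed level of the 8 was 2153 to 2424 CPM in control SC mice and 2045 to 2163 CPM in CBP-ifKO SC mice, and 2295 to 2492 and 2032 to 2167 CPM in the EE groups. Of 12 interneuron markers 1 was lower in SC, Calb2 (-0.65, adjusted p = 0.00874), and 1 in EE, Lamp5 (-0.58, adjusted p = 0.00314 in the edgeR test). Calb2 had -0.43 in EE (adjusted p = 0.129) and Lamp5 -0.42 in SC (adjusted p = 0.0573 in the edgeR test), and both passed over both housings (adjusted p = 0.00253 and 0.000373). The 12 markers had medians of -0.09 and -0.05. Their summed level was 956 to 962 CPM in control SC mice and 858 to 904 CPM in CBP-ifKO SC mice, and 895 to 978 and 876 to 910 CPM in the EE groups. Calb2 is made by mossy cells as well as by interneurons. Of the 8 striatal markers Rasd2 was lower in both housings (-0.64 in SC and -0.81 in EE) and Ppp1r1b in EE (-0.53). The summed level of the 8 was 195 to 219 CPM in control SC mice and 163 to 178 CPM in CBP-ifKO SC mice, and 202 to 209 and 152 to 163 CPM in the EE groups, without overlap between the genotypes. Of the 4 thalamic markers none passed in SC and Prkcd was lower in EE (-0.50, adjusted p = 0.0197 in the edgeR test). Lef1 (0.25), Rgs16 (0.05) and Tcf7l2 (-0.01) did not pass in EE, where the median of the 4 was 0.02. The summed level of the 4, of which Prkcd was the highest, was 34.2 to 48.4 CPM in control SC mice and 33.1 to 36.4 CPM in CBP-ifKO SC mice. It was 37.4 to 43.3 and 32.1 to 35.5 CPM in the EE groups. The habenular marker Chrna3 had -0.91 in SC (adjusted p = 0.0772) and -0.40 in EE (adjusted p = 0.416), and passed over both housings (-0.66, adjusted p = 0.0276 in the edgeR test). Of the choroid plexus markers Ttr alone passed in SC, at 20.7 to 26.0 CPM in controls and 6.02 to 7.73 CPM in CBP-ifKOs (-1.70, adjusted p = 2.2e-05 in the edgeR test). In EE, where control replicate 1 stood apart, none of the 6 passed. The summed level of the 6 was 47.5 to 54.2 CPM in control SC mice and 35.8 to 39.1 CPM in CBP-ifKO SC mice. Kl lay the other way, at 21.7 to 25.1 CPM in control SC mice and 25.9 to 28.8 CPM in CBP-ifKO SC mice (0.22 on the log2 scale). Clic6 (-1.10), Aqp1 (-0.80) and Folr1 (-0.28) were lower without passing in SC. Of 4 endothelial markers Kdr was lower in SC (-0.43, adjusted p = 0.0222 in the edgeR test) and none passed in EE, and their summed level was 145 to 151 CPM in control SC mice and 122 to 136 CPM in CBP-ifKO SC mice. None of the 5 astrocyte, 5 oligodendrocyte and 5 microglia markers passed in SC or in EE in the edgeR test, while Slc1a3 of astrocytes (-0.21, adjusted p = 0.0173) and Cx3cr1 (-0.17, adjusted p = 0.017) and Csf1r (-0.12, adjusted p = 0.0356) of microglia passed as lower over both housings. The summed astrocyte markers were at 1477 to 1653 CPM in control SC mice and 1425 to 1446 CPM in CBP-ifKO SC mice, and at 1445 to 1497 and 1292 to 1365 CPM in the EE groups. Those of microglia were at 257 to 261 and 229 to 251 CPM in SC and at 239 to 265 and 224 to 229 CPM in EE. Neither overlapped between genotypes in a housing, whereas the oligodendrocyte sums did in both (3317 to 4489 and 3603 to 4208 CPM in SC, 3568 to 4723 and 3533 to 4400 CPM in EE). The part of these markers in the values of the precursors was not tested.

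**Figure D5:**
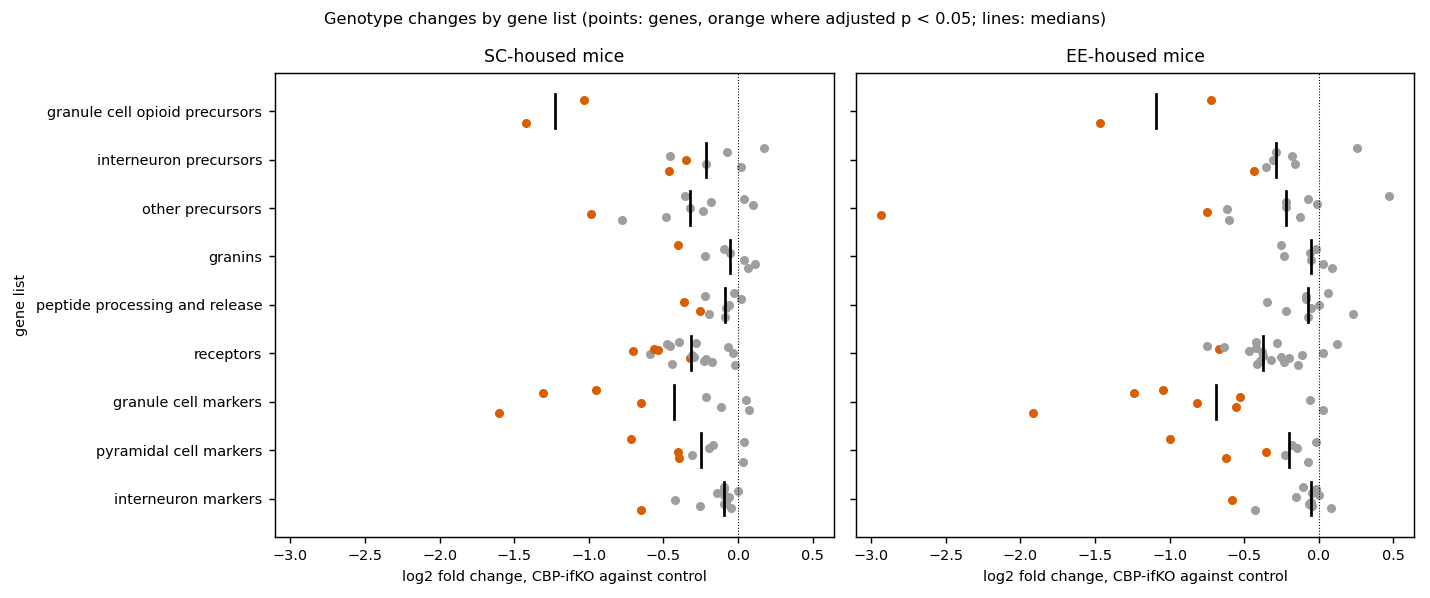
Log2 fold change between CBP-ifKOs and controls (horizontal axis) of the genes of 9 lists in SC-housed (left) and EE-housed mice (right), with 1 point per gene (orange where the adjusted p is below 0.05) and a line at the median of the list. The medians of the opioid precursors are -1.23 and -1.09, those of the granule cell markers -0.43 and -0.69 and those of the interneuron markers -0.09 and -0.05.

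For each precursor the 3 genes with the most similar pattern over the 12 mice were taken from 15009 genes with a mean of at least 1 CPM, by Pearson's r of log2 CPM. The 12 mice share genotypes and housings, so that genes that differ between genotypes resemble each other for that reason alone, and these r values are given as a description. Pdyn was most like C1ql2 (r = 0.993), Kcnip2 (0.987) and Camkv (0.986), the highest values of the set. Penk was most like Golga7b (0.957), Mc4r (0.957) and Glrx3 (0.955). Neither opioid precursor was among the 3 genes of the other. Sst was most like Aldoa (0.976), Ldha (0.975) and Eif5a (0.957), and Cck was most like Stmn2 (0.981), Ctxn1 (0.974) and Rlbp1 (0.971). Npy was most like Mir22hg (0.917), Rprml (0.916) and Aaas (0.911), and Vip was most like Abt1 (0.924), Ik (0.919) and Armc5 (0.916). For the less abundant precursors the first genes were Oaf for Tac1 (0.906), Crybb1 for Tac2 (0.890), Gm37928 for Crh (0.856) and Abcd3 for Adcyap1 (0.907). After these came Otulinl and Gm16701 for Tac1, Zfp428 and Sp2 for Tac2, Slc20a2 and Tnpo1 for Crh, and Itgb3bp and E130307A14Rik for Adcyap1, with r between 0.840 and 0.904.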

How the data were processed

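Hippocampal RNA of 12 mice was sequenced as 50 bp single-end reads in 2 runs per mouse. The authors trimmed the reads with Trim Galore 0.6.4, aligned them with STAR 2.6.1 to GRCm38, removed those with a mapping quality of 10 or less and summed reads over exons with Rsubread. What they deposited is a table of raw counts, with both runs of a mouse merged, so that alignment, multiple mapping and counting are fixed in them. All counts of the CBP-ifKO libraries are even, against 54.05% to 55.12% odd among the nonzero control counts. Tests were run on these deposited counts, and halved CBP-ifKO counts were an alternative. Whether counting used strand is not given in the sources used here. Groups were taken from the sample titles.

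Counts were analyzed in R 4.3.3 with edgeR 4.0.16 (expression filter, TMM, quasi-likelihood F test, Benjamini-Hochberg adjustment over all genes tested, threshold 0.05, no fold threshold). Genotypes were compared in the 6 mice of each housing. Housing, the interaction and genotype over both housings were tested in all 12 mice with 1 coefficient per group. Intervals are 95% intervals of the same fit. The genotype test in SC was also run on simulated counts, while the other fits and the intervals were not tested in this way. Levels per kilobase use the exon length listed with the counts. Positions come from GENCODE and promoters from RefSeq. Protein sequences were not used here.

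The precursors and lists were chosen with earlier results of these data known. The text names the 10 precursors, Crebbp, the 3 genes most like each precursor, of other lists up to 3 genes that passed with the smallest p per genotype comparison, and markers of other tissues at or near 0 counts. Genes of the lists outside this rule (Prox1, Calb1, Stxbp6, Dsp, Slc17a7, Bok, Grik4, Neurod6, Pou3f1, Cpe, Sstr2 in SC, Cadps2, the immediate early genes and the markers of other tissues above 0 that did not pass) were named after their values were seen. Alternatives were DESeq2 1.42.0, its size factors, no filter on low counts, the replicate number as a block, halved CBP-ifKO counts, all 12 mice in the genotype fits, other definitions of the score (prior count 0.5 in place of 2, other members), and leaving out each mouse.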

Additional observations from a re-analysis of the deposited data

How the results depend on the processing

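Penk and Pdyn were lower in CBP-ifKOs with an adjusted p below 0.05 under every alternative that was run, in SC, in EE and over both housings. Of the 10 precursors, between 3 and 6 passed in SC, between 2 and 4 in EE and between 4 and 6 over both housings when 1 mouse was left out. Over both housings 6 passed with DESeq2, 7 without the filter on low counts and 7 with the block. Without the filter 5 passed in EE (Sst as lower and Adcyap1 as higher in addition), 5 in SC (Tac1 in addition), 1 in the housing comparison of control mice (Npy) and 3 in that of CBP-ifKOs (Penk, Npy and Adcyap1). DESeq2 called 2 in the latter, Penk and Npy, as did the replicate block, and leaving out 1 mouse gave 0 to 2. Whether the replicate numbers pair the mice was not settled. In none of the 4 pairs of groups compared did all same-numbered mice correlate above 0.1 in their deviations from the group means (r between -0.0472 and 0.305). Such a cutoff cannot exclude a pairing. Between control SC and control EE mice r was 0.191, 0.305 and 0.0335 for replicates 1, 2 and 3. Between control EE and CBP-ifKO EE mice each correlated best with its own number (r = 0.114, 0.124 and 0.0341), and in the other pairs of groups not every mouse did. With the block, Penk (adjusted p = 0.0213) and Npy (adjusted p = 0.0395) passed between housings in CBP-ifKOs in edgeR, Sst passed in EE (adjusted p = 0.0338), Npy and Tac1 passed over both housings, and Crh in SC had a log2 value of -0.0093. For all genes, the counts called were 968 in SC (399 to 1908 without 1 mouse, 1512 without the filter), 805 in EE (285 to 1016; DESeq2 1296, without the filter 1677, 12 mice in the fit 1293), 0 for housing in controls (0 to 5; DESeq2 15, without the filter 145), 2 for housing in CBP-ifKOs (0 to 10; DESeq2 54, without the filter 247, block 17, halved 0), and 0 for the interaction (110 without the filter). In SC leaving out any of the 6 mice moved the count by over 1.5 times, upward only without control replicate 2, and in EE it did so without control replicate 3 (285) and without each CBP-ifKO (286 to 447). The opioid minus interneuron score differed between genotypes by -0.95 over both housings, by -0.98 to -0.92 without 1 mouse, and by -0.83 without Vip, Tac2 and Crh.

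Precursors that did not pass and whose sign turned when 1 mouse was left out had log2 values close to 0. In SC they were Tac2 (-0.14 to 0.0037) and Crh (-0.26 to 0.21). For housing in controls they were Cck (-0.0214 to 0.14), Tac1 (-0.11 to 0.25), Tac2 (-0.0210 to 0.28) and Adcyap1 (-0.19 to 0.0849). For the interaction they were Pdyn (-0.14 to 0.0811), Npy (-0.0534 to 0.16), Sst (-0.0664 to 0.14), Cck (-0.0666 to 0.0940) and Vip (-0.0009 to 0.15). The cause of these differences was not tested.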

Other observations

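Over both housings, with 6 mice of each genotype, further genes of peptide signaling were lower in CBP-ifKOs in the edgeR test. Of 19 receptor genes tested 8 passed, all lower, among them Sstr3 (-0.62, adjusted p = 2.04e-05), Sstr2 (-0.51, adjusted p = 0.00126) and the neuropeptide Y receptor gene Npy5r (-0.28, adjusted p = 0.00379). Of the 10 further precursors 4 passed, all lower, Gal among them, which passed the filter on low counts only through the control mice, and the third by p was Cartpt (-0.70, adjusted p = 0.0105), which was low, with 1.19 to 1.92 CPM in control SC mice and 0.761 to 0.953 CPM in CBP-ifKO SC mice. Of the granins Vgf (-0.33, adjusted p = 0.00494) and Scg2 (-0.23, adjusted p = 0.00582) passed. Over all genes tested 16.9% passed in this comparison, and 10.3% as lower.

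Cadps2, which encodes a protein that primes dense-core vesicles for release, varied widely between mice of 1 group and was singled out after its values were seen. It was at 74.3, 68.9 and 71.4 CPM in control SC mice, at 60.15, 119 and 10.3 CPM in CBP-ifKO SC mice, at 12.7, 141 and 10.9 CPM in control EE mice and at 66.7, 65.8 and 58.6 CPM in CBP-ifKO EE mice. It did not pass between genotypes over both housings (0.01 on the log2 scale, SE 0.53, adjusted p = 0.992 in the edgeR test).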
